A study of Mus musculus with 6 samples.

Results

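In all, 10 genes were followed across mouse embryonic stem cells with and without Hoxd12: Rpl39l, Rpl39, Rpl22l1, Rpl22, Rpl7l1, Rpl7, Rps27l, Rps27, Rpl10l and Rpl3l. They are ribosomal protein paralogues and, for 4 of the 6 paralogues, the parent gene that each resembles. They were taken by symbol from the list of paralogue pairs, and all 10 were found among the 55450 genes of the files. Rpl10 and Rpl3, the parents of Rpl10l and Rpl3l, were added as the denominators of their ratios. The genes were chosen with the difference between the genotypes already known, in counts, TPM and paralogue-to-parent ratio. Their values in that comparison are therefore given as a description, without p-values. Calls of these genes, where given, describe the same comparison and are no evidence for it.

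The 2 groups were Hoxd12-/- cells, called the knockout, and wild-type cells, with 3 libraries each. The labels give both as C57BL6 embryonic stem cells of an E3.5 embryo, cultured in mES+2i medium, in which inhibitors of MEK and GSK3 keep the cells naive. Whether replicates are separate cultures or clones is not labelled, so every p-value reflects library-to-library spread alone, and that spread may be technical. A difference between the cell lines or clones other than Hoxd12 cannot be told apart from the genotype. Polyadenylated RNA was sequenced with a stranded kit.

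Ribosomal proteins are needed in near-equal numbers, because each ribosome carries a single copy of most of them, and their genes are among the most strongly expressed in growing cells. A few have a paralogue, a second gene for a similar protein, whose product can take the place of the usual subunit. Such paralogues are often expressed in particular tissues, above all in male germ cells, where the X-linked parents are silenced during meiosis, and in striated muscle. Rpl39l is known from male germ cells and is also expressed in embryonic stem cells.

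Rpl39 encodes a short protein that lines the exit tunnel of the large subunit, through which the growing peptide leaves. Rpl39l (ENSMUSG00000039209, chromosome 16, 10170226 to 10174911, plus strand, GRCm38) and Rpl39 (ENSMUSG00000079641, chromosome X, 37082520 to 37085402, minus strand) both have 3 exons in their coding transcripts and coding sequences of 156 bases. These differ at 23 positions, which leaves 85.3% identical, and in 21 of 52 codons. The coding sequences are shown because they tell how far reads of the pair can be told apart. Capitals mark the positions at which they differ.
Rpl39l: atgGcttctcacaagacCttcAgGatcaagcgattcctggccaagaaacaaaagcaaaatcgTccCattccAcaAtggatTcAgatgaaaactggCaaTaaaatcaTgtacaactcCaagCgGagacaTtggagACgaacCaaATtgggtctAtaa
Rpl39: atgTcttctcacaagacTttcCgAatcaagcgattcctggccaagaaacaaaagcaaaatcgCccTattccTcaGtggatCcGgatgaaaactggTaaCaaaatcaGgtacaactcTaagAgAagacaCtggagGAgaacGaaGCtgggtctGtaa
No stretch of 50 bases was shared between the coding transcripts of the pair. Of the 756 such stretches of the Rpl39l transcript, 0 occurred in the transcripts of any other gene, on either strand. For Rpl39, 93 of 563 (16.5%) occurred in transcripts of 9 other genes. The expected count of Rpl39l was a whole number in 6 of 6 libraries and that of Rpl39 in 0 of 6, so the parent's counts held fractions of reads and the paralogue's did not.

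Rps27 encodes a zinc-binding protein of the small subunit, and Rps27l is a p53-inducible copy of it. Their coding sequences, shown as the other pair of equal length in which the paralogue was strongly expressed, differ at 61 of 255 bases (76.1% identical), and capitals again mark the differing positions.
Rps27l: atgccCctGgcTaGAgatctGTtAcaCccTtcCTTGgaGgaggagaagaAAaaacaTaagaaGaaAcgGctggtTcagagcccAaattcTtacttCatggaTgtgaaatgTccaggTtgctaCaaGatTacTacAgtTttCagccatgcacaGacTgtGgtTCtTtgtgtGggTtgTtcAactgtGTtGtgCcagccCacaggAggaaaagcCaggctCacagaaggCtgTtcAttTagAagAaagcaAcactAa
Rps27: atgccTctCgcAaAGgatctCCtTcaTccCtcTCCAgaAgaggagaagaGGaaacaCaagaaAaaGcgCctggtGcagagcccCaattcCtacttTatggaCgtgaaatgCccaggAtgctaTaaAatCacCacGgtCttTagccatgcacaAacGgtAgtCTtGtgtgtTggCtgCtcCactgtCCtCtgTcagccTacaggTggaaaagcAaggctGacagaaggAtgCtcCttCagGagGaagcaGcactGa
The other pairs were 84.8% (Rpl10l and Rpl10), 73.3% (Rpl3l and Rpl3), 68.2% (Rpl22l1 and Rpl22) and 54.0% (Rpl7l1 and Rpl7) identical over their aligned coding bases. None of the 6 pairs shared a stretch of 50 bases. Transcripts of other genes matched the parent more often than the paralogue in each pair except Rpl22l1 and Rpl22. They held 98.6% of the stretches of Rps27, 92.1% of Rpl10, 85.6% of Rpl3, 53.3% of Rpl7 and 24.5% of Rpl22. Among the paralogues the shares were 65.6% for Rpl22l1, 22.4% for Rps27l, 9.2% for Rpl7l1, 7.6% for Rpl10l and 0% for Rpl3l. The value of a single parent, and that of Rpl22l1, is therefore uncertain, although the expected count of Rpl22l1 was a whole number in 5 of 6 libraries.

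Library totals lay between 5412577 and 6280934 expected counts. All 10 embryonic stem cell markers, among them Pou5f1 and Sox2, had at least 3 counts in every library, with a summed level of 11200 to 11800 TPM in wild type and 12500 to 12700 TPM in the knockout. Of 10 male germ cell markers, the spermatid genes Prm1, Prm2, Tnp1 and Acrv1 were at 0 in every library, and the summed level of the list was 43.5 to 47.6 TPM in wild type and 45.4 to 49.8 TPM in the knockout. Of the 5 germ cell markers tested, 1 fell (Dazl, -1.18, edgeR adjusted p = 0.000219) and 0 rose, with a median of 0.06 and a highest value of 0.43. Of the 10 stem cell markers 1 rose and 1 fell, and of the 2 fibroblast markers tested 1 fell. Over all tested genes edgeR called 12.1% higher and 14.4% lower, and nothing is read from these few calls. Fibroblast markers summed to 7.96 to 11.7 TPM in wild type and 3.94 to 8.02 TPM in the knockout, with Col3a1, Dcn, Lum, Postn and Twist2 at 0. Striated muscle markers summed to 2.28 to 5.73 TPM and 2.31 to 3.24 TPM, with Myl1 at 0. The targeted gene Hoxd12 had 0 counts in all 6 libraries, which allows up to 0.478 to 0.554 CPM in a library, CPM being counts scaled for depth, so its counts offered no check of the genotypes. Knockout replicate 2 stood apart: the locus CT010467.1 took 1.63% of its counts, against 0.102% to 0.139% in the other 5 libraries. The part of these markers and of that library in the results was not tested, other than by leaving the library out. In bulk RNA, fewer cells that express a gene and less RNA per cell cannot be told apart.

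Rpl39l was the gene of the set with by far the largest difference. Knockout libraries held 53, 44 and 48 expected counts of it, and wild type 305, 384 and 336. Scaled for length, the level was 15.7, 12.5 and 15.5 TPM (counts scaled by length and depth) in the knockout and 87.4, 102 and 88.9 TPM in wild type. The groups did not overlap, and the highest knockout library was far below the lowest wild-type library. The log2 fold change in CPM from edgeR's fit was -2.84 (SE 0.12, n = 3 per group), the 19th lowest of the 12891 genes tested. Without any 1 library it lay between -2.90 and -2.78, and it was -2.70 after a correction for gene length and GC content.

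Rpl39, the parent, had 6980, 6309 and 7020 expected counts in the knockout and 6347, 7056 and 6941 in wild type. In CPM the groups overlapped (1130 ± 57.2 against 1150 ± 42.3, SD, n = 3), with a log2 fold change of -0.03 (SE 0.05). In TPM it was 2249, 2214 and 2235 in the knockout and 2068, 2074 and 2146 in wild type, and here every knockout library was the higher. On log2(TPM + 1) that difference was 0.09, beside a median of 0.10 over all tested genes on the same scale, and after the length and GC correction it was 0.15. The direction for Rpl39 thus depended on the scaling, while that of Rpl39l did not.

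In wild type Rpl39l stood at 4.23%, 4.90% and 4.14% of the TPM of Rpl39, and in the knockout at 0.696%, 0.565% and 0.694%. The ratio was 6.79 times as high in wild type as in the knockout. From expected counts the ratio was 7.05 times as high, and the log2 difference, -2.76, stayed within -2.82 and -2.67 over its 10 alternatives. The summed level of the pair was 2247 ± 19.3 TPM in the knockout and 2189 ± 41.4 TPM in wild type (SD, n = 3), and the groups overlapped. Rpl39l supplied 4.23% ± 0.379 of that sum in wild type and 0.647% ± 0.0739 in the knockout.

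**Figure D1:**
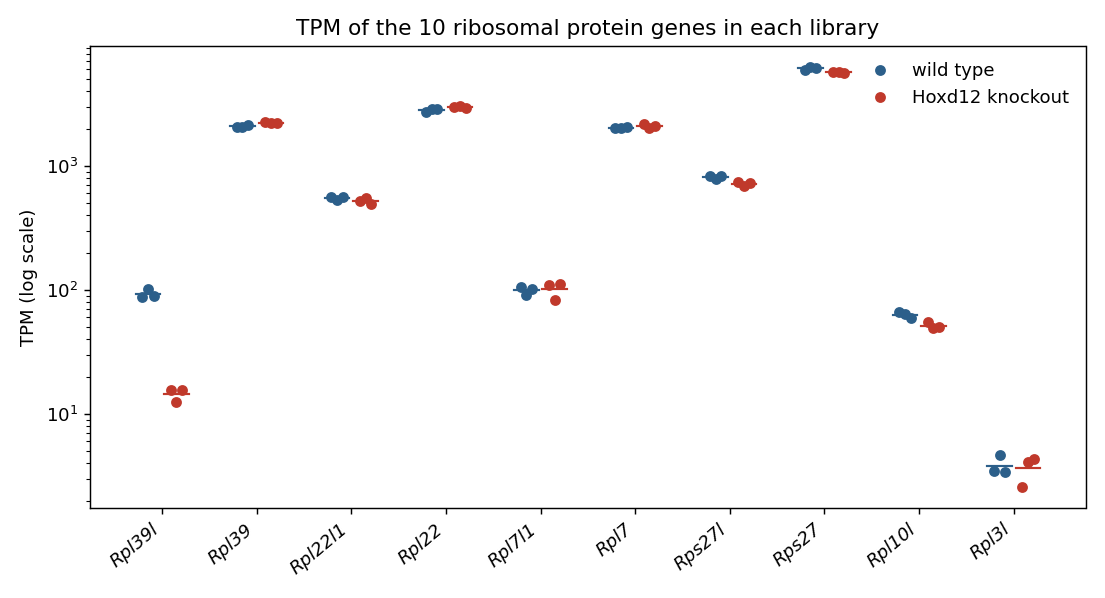
TPM (log scale) of the 10 genes in each library, with wild type in blue, the knockout in red, points for single libraries and lines for the group means. Rpl39l is the gene whose groups lie far apart, at 92.6 TPM in wild type and 14.6 TPM in the knockout on average. The parents among the 10 genes stay at 2005 TPM or above in every library.

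**Figure D2:**
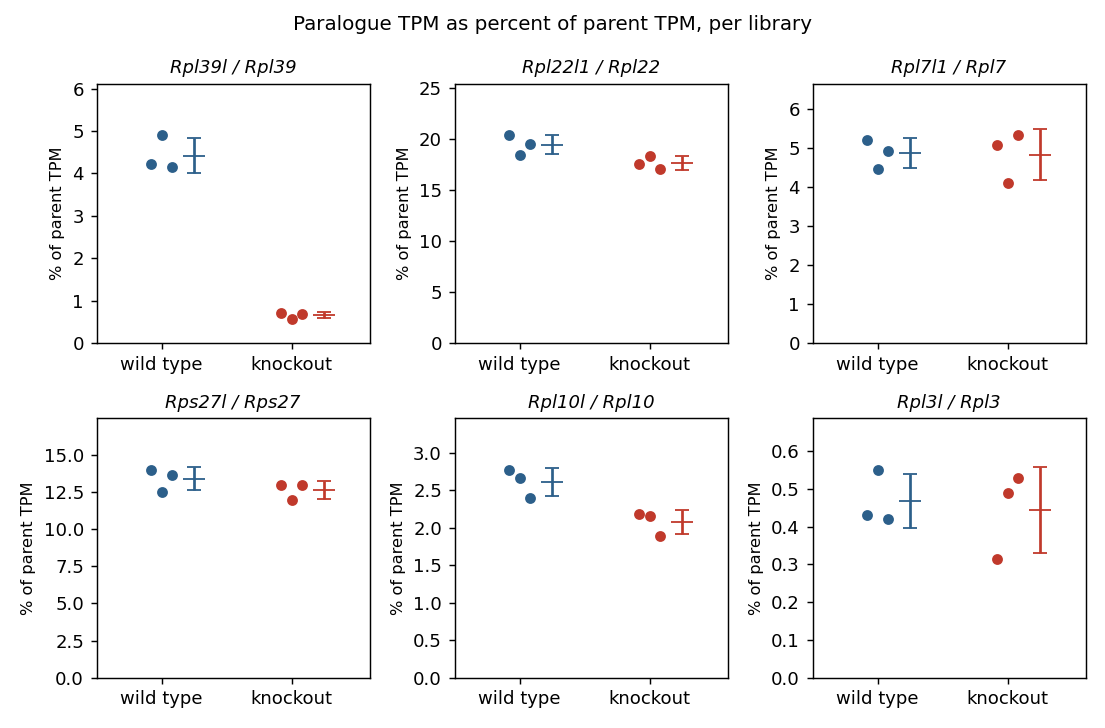
TPM of each paralogue as a percent of the TPM of its parent, by library, with the group mean and SD (n = 3) beside the points; each panel starts at 0 and has its own scale. The Rpl39l to Rpl39 ratio is 4.42% in wild type and 0.652% in the knockout, and the other pairs differ much less.

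The promoter of Rpl39l is shown beside that of Rpl39 because the large difference was in the level of the paralogue's RNA. Both are 300 bases, from RefSeq (GRCm38.p6), at chr16:10169978-10170277 on the plus strand and chrX:37085173-37085472 on the minus strand. Capitals mark the motif CCGGAA, a core of sites for ETS factors, on either strand; it was chosen after the sequences had been read.
Rpl39l: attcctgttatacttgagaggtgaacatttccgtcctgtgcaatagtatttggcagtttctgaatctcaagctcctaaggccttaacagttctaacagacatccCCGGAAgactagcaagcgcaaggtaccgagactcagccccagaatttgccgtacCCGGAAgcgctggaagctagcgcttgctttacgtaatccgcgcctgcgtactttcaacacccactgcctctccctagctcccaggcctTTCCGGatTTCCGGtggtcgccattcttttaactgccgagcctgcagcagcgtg
Rpl39: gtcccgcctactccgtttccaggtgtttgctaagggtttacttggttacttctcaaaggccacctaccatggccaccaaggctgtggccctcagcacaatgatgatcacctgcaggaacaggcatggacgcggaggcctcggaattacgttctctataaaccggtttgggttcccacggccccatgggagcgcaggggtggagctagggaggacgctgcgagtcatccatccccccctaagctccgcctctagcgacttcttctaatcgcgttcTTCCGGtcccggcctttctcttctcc
The motif occurred 4 times in the Rpl39l promoter and 1 time in that of Rpl39. It occurred in 14.9% of the 32851 promoters of the table. Of the 9 listed genes that had a promoter there, 5 held it in any of their promoters. The 14.9% is counted per promoter and the 5 of 9 per gene, so they are not compared. Each of the 2 promoters held 17 CG dinucleotides, against a median of 7 over all promoters, of which 68.6% held fewer than 17. These counts describe the letters only.

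Neighbouring genes were examined to see whether the region around Rpl39l moved with it. Of the 10 nearest protein-coding genes, 5 on each side, 8 were tested, and their median log2 fold change was -0.04, beside 0.02 over all genes. On the side of lower coordinates the nearest gene, Grin2a (midpoint at -391 kb), was not tested. The tested genes on that side, 1810013L24Rik, Usp7 and Carhsp1, had midpoints at -1328 to -1507 kb, so nothing closer was measured there. The closest tested neighbour, Atf7ip2, with midpoints 49.5 kb apart, had 20, 31 and 42 counts in the knockout and 41, 36 and 42 in wild type. Its difference of -0.38 (SE 0.24, edgeR adjusted p = 0.262) did not pass the test, and the groups overlapped. Emp2 (0.23), Tekt5 (-0.26), Nubp1 (-0.02), Usp7 (0.02) and Carhsp1 (-0.06) did not pass either, with edgeR adjusted p of 0.590 to 0.844. The direction was not stable for Nubp1, Usp7 and Carhsp1 over the alternatives. 1810013L24Rik fell (-0.28, SE 0.11, edgeR adjusted p = 0.0461) and Tvp23a rose (1.19, SE 0.44, edgeR adjusted p = 0.0403). Both calls were weak: that of Tvp23a was lost in 11 of 14 alternatives and that of 1810013L24Rik in 9 of 14, DESeq2 included (adjusted p = 0.144 and 0.184, in ranges of 0.0318 to 0.176 and 0.00915 to 0.217). Tvp23a overlaps Nubp1 in the annotation, so reads of the pair may be mixed.

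**Figure D3:**
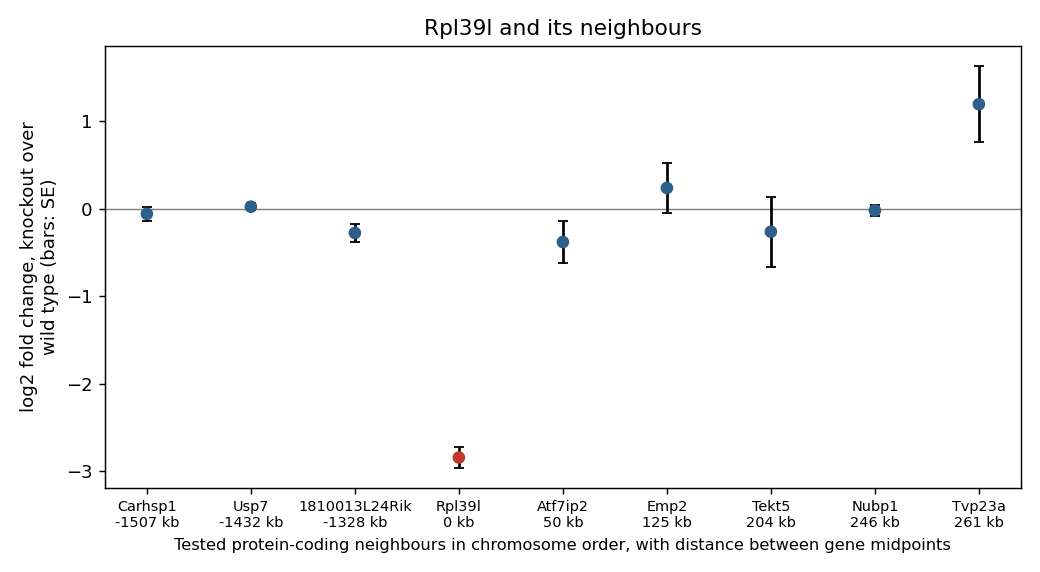
Log2 fold change with SE (knockout over wild type) of Rpl39l in red and its tested protein-coding neighbours in blue, in chromosome order and not to scale, with the distance between midpoints under each name. Rpl39l lies at -2.84, and the neighbours lie between -0.38 and 1.19.

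The genes whose profile over the 6 libraries was most like that of Rpl39l were H19, Xlr3a, Fkbp6, Olfr718-ps1 and Ddx3y. Likeness was the root mean square difference of log2 CPM centred on wild type, over 6 libraries in 2 groups, and ranged from 0.556 for H19 to 0.911 for Ddx3y. H19, a maternally expressed imprinted RNA, had 61, 44 and 63 counts in the knockout and 653, 690 and 644 in wild type. Fkbp6, a meiotic co-chaperone gene, had 33, 27 and 20 counts against 101, 118 and 79. Ddx3y, on chromosome Y, had 27, 17 and 23 counts against 67, 61 and 67. Such a profile is mainly the difference between the groups, so these genes share its size with Rpl39l by construction.

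Rpl22l1 and Rpl22 encode alternative forms of an RNA-binding protein of the large subunit, and Rpl22 protein is known to repress Rpl22l1. Rpl22l1 stood at 525, 553 and 496 TPM in the knockout and 557, 532 and 559 TPM in wild type. The groups overlapped through knockout replicate 2, and the log2 fold change in CPM was -0.17 (SE 0.06). Without that library it was -0.26. Rpl22 had 2994, 3020 and 2917 TPM in the knockout and 2740, 2887 and 2870 TPM in wild type, every knockout library being the higher on this scale. In CPM its groups overlapped, with a log2 fold change of -0.02 (SE 0.05) that became 0.20 after the length and GC correction. Rpl22l1 stood at 17.5%, 18.3% and 17.0% of the TPM of Rpl22 in the knockout and at 20.3%, 18.4% and 19.5% in wild type. The groups did not overlap, but knockout replicate 2 and wild-type replicate 2 were nearly equal.

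Rpl7 encodes a large-subunit protein, and Rpl7l1 a relative that acts in large-subunit assembly. Rpl7l1 had 1476, 1181 and 1458 expected counts in the knockout and 1484, 1513 and 1508 in wild type. The groups did not overlap, and the log2 fold change in CPM was -0.16 (SE 0.04). In TPM the groups overlapped, at 102 ± 16.1 in the knockout and 98.99 ± 7.09 in wild type (SD, n = 3), and the direction turned, with 0.032 on log2(TPM + 1). Rpl7 had overlapping groups, with -0.05 (SE 0.04) in CPM and 0.049 on log2(TPM + 1). The TPM ratio of the pair was 4.84% ± 0.651 in the knockout and 4.88% ± 0.382 in wild type. From expected counts it was 10.2%, 9.46% and 10.2% against 11.1%, 10.3% and 10.8%, and these groups did not overlap. The effective length of Rpl7l1, which turns counts into TPM, varied between libraries (2126 ± 207 bases in the knockout, 2226 ± 82.9 in wild type).

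Rps27l had 748, 686 and 725 TPM in the knockout and 825, 786 and 837 TPM in wild type. Every knockout library was the lower, in TPM as in CPM, and the log2 fold change in CPM was -0.30 (SE 0.04). It was -0.11 after the length and GC correction. Rps27 had 5756, 5728 and 5574 TPM in the knockout and 5910, 6284 and 6123 TPM in wild type. Again every knockout library was the lower, with a log2 fold change in CPM of -0.21 (SE 0.05). With the length and GC correction Rps27 turned to 0.105. Both genes of this pair were lower, and the ratio of their TPM overlapped between the groups (12.7% ± 0.593 in the knockout, 13.4% ± 0.772 in wild type; SD, n = 3). The summed level of the pair was 6405 ± 103 TPM in the knockout and 6922 ± 170 TPM in wild type, without overlap.

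As a frame for Rps27l, 28 known p53 targets were listed, of which 27 were tested. Of these, 5 rose and 4 fell by edgeR's test, against a background of 12.1% higher and 14.4% lower over all genes, and their median was -0.03. Ddit4, a stress-induced inhibitor of mTOR signalling, rose (0.32, edgeR adjusted p = 6.95e-06). The apoptosis effector gene Bax (-0.18, edgeR adjusted p = 0.00274), the exonuclease gene Aen (-0.22, 0.00776) and the carbonyl reductase gene Dcxr (-0.43, 0.00848) fell. Ddit4 was called in 14 of 14 alternatives, and the other 3 were not called on log2(TPM + 1) (limma adjusted p = 0.477, 0.458 and 0.0871, in ranges of 0.00213 to 0.988, 0.00501 to 0.459 and 0.00374 to 0.165). DESeq2 called 1 rise and 1 fall in the list. Without knockout replicate 1 edgeR called 1 rise, without wild-type replicate 1 or 2 it called 3, and without wild-type replicate 3 it called 2.

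Rpl10l is an intronless copy of the X-linked Rpl10 that serves male meiosis, and it lies on chromosome 12 from 66283379 to 66284401. It was expressed in these cells at 55.4, 49.1 and 50.3 TPM in the knockout and 65.9, 64.0 and 59.6 TPM in wild type. Every knockout library was the lower, and the log2 fold change in CPM was -0.41 (SE 0.07), within -0.46 and -0.29 over 14 alternatives. Rpl10 had 2537, 2276 and 2658 TPM in the knockout and 2380, 2408 and 2483 TPM in wild type, which overlapped. In CPM every knockout library was the lower (1723 ± 28.5 against 1860 ± 66.5, SD, n = 3), with a log2 fold change of -0.11 (SE 0.04) that edgeR called. Rpl10l stood at 2.08% ± 0.161 of Rpl10 in the knockout and 2.61% ± 0.188 in wild type (SD, n = 3), without overlap.

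Rpl3l, the form of Rpl3 used in striated muscle, was barely expressed. It had 21, 29 and 35 counts in the knockout and 25, 34 and 25 in wild type, and its level was 2.59 to 4.34 TPM and 3.41 to 4.64 TPM. The groups overlapped, and the log2 fold change of -0.01 had an SE of 0.26, so that a moderate difference was not detectable at this depth. Its TPM was 0.444% ± 0.114 of that of Rpl3 in the knockout and 0.467% ± 0.0714 in wild type.

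Ordered by mean TPM in wild type, the paralogues ran from Rps27l (816) and Rpl22l1 (549) through Rpl7l1 (98.99), Rpl39l (92.6) and Rpl10l (63.1) to Rpl3l (3.84). Rpl39l (SD 7.79, n = 3) and Rpl7l1 (SD 7.09) lay within each other's spread, and Rpl39l was above Rpl10l in every wild-type library. In the knockout the order was Rps27l (719), Rpl22l1 (525), Rpl7l1 (102), Rpl10l (51.6), Rpl39l (14.6) and Rpl3l (3.68), with Rpl39l below Rpl10l in every library. The parents among the listed genes were ordered Rps27, Rpl22, Rpl39 and Rpl7 in both groups, at 6106, 2832, 2096 and 2030 TPM in wild type. The added parents Rpl10 and Rpl3 stood at 2424 and 820 TPM in wild type.

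Of the 10 genes, edgeR's quasi-likelihood test called 5 lower in the knockout (Rpl39l, Rpl10l, Rps27l, Rps27 and Rpl7l1) and 0 higher (0 at an unadjusted p below 0.05, and 0 by DESeq2 and by limma on TPM). Over all 12891 tested genes it called 26.5%, 12.1% higher and 14.4% lower; DESeq2 called 15.4%, limma on TPM 13.2% with a pseudocount of 1 and 12.9% with one of 0.1, the length and GC correction 24.5% and the offset for effective length 19.1%. In CPM the groups did not overlap in 5 of the 10 genes, against 39.7% of all tested genes. Nothing is read from these shares or from the calls of single genes, because the genes were chosen on this comparison. The alternatives refit the same libraries, so they show only how the calls depend on the processing. Rpl39l, Rpl10l and Rps27l were called lower in all 14 alternatives. Rps27 was not called on TPM and was called higher, with Rpl39 and Rpl22, after the length and GC correction. Rpl7l1 was not called on TPM or with an offset for effective length. Rpl22l1 was called lower in 4 alternatives, without knockout replicate 2 among them.

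**Figure D4:**
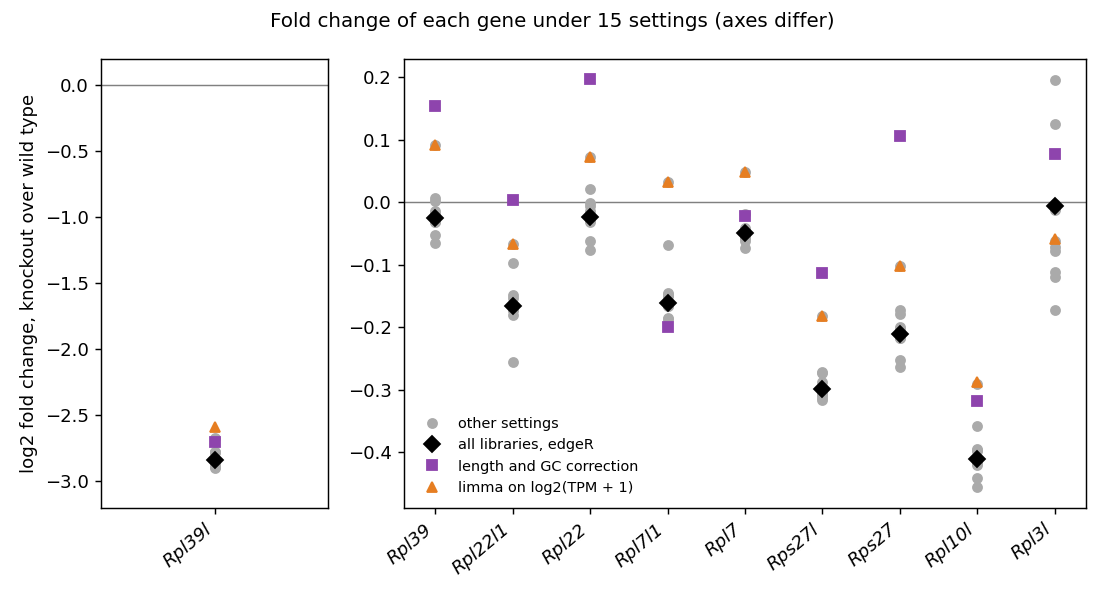
Log2 fold change (knockout over wild type) of each gene with all libraries (black), after the length and GC correction (purple), with limma on log2(TPM + 1) (orange) and under the other alternatives (grey); Rpl39l has its own axis at the left. Rpl39l stays between -2.90 and -2.59, Rpl10l and Rps27l stay below 0, and Rpl39, Rpl22, Rpl7, Rpl7l1, Rps27, Rpl22l1 and Rpl3l lie on both sides of 0.

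The other 76 cytosolic ribosomal protein genes were all tested. Of these 50 fell and 0 rose by edgeR's test (1 higher at an unadjusted p below 0.05), where 14.4% of all genes fell, and their median was -0.16 beside 0.02 for all genes. These counts depended on the processing. On log2(TPM + 1), 18 fell and 7 rose, and after the length and GC correction 9 fell and 23 rose, with a median of 0.03. Without wild-type replicate 2, 33 fell. No gene of the 76 had a lower fold change than Rpl39l, 1 lay below Rpl10l and 5 below Rps27l. Rpl22l1 and Rpl7l1 lay near the middle, with 37 and 40 of the 76 below them, and 63 lay below Rpl39. The summed level of the 76 genes was 273069 ± 2826 TPM in the knockout and 282401 ± 4729 TPM in wild type (SD, n = 3), without overlap. Knockout replicate 1 (275991 TPM) and wild-type replicate 1 (277045 TPM) were nearly equal.

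**Figure D5:**
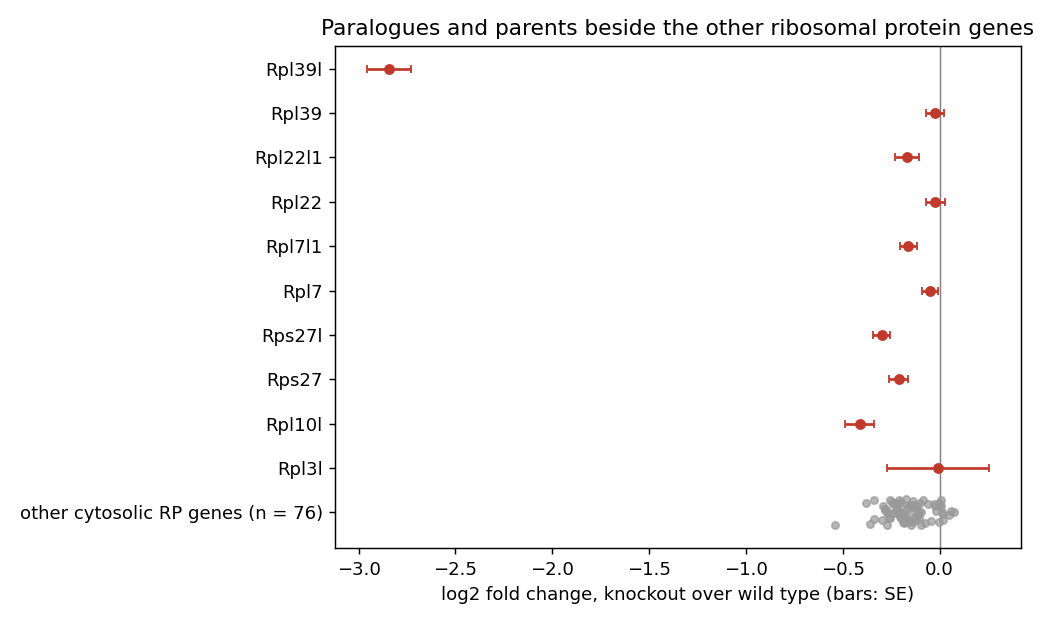
Log2 fold change with SE (knockout over wild type) of the 10 genes in red, above single points for the 76 other cytosolic ribosomal protein genes in grey, which are spread vertically only for legibility. The grey points lie between -0.54 and 0.08, and Rpl39l lies at -2.84.

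The lowest of the 76 was Rpl36al, itself a paralogue: it is the autosomal copy of the X-linked Rpl36a. It fell (-0.54, SE 0.05, edgeR adjusted p = 2.73e-10) and was called in 14 of 14 alternatives. Its level was 946, 930 and 888 TPM in the knockout and 1239, 1259 and 1216 TPM in wild type. Rpl36a changed less (-0.14, SE 0.05, edgeR adjusted p = 0.0324), with overlapping groups in TPM. Rpl36al stood at 38.5%, 38.3% and 35.4% of Rpl36a in the knockout and at 52.3%, 48.5% and 47.7% in wild type; this pair was examined after its values had been seen. Among the next lowest were the large-subunit genes Rpl38 (-0.36, edgeR adjusted p = 9.57e-06) and Rpl27 (-0.34, edgeR adjusted p = 6.03e-07), which both fell. Rpl38 lost its call after the length and GC correction (adjusted p = 0.550, in a range of 8.37e-11 to 0.550). Among the highest were Rps2 (0.08), Rpl13 (0.06) and Rps7 (0.02), with edgeR adjusted p of 0.133 to 0.786. On log2(TPM + 1) Rps2 and Rpl13 were called higher (limma adjusted p = 0.00988 and 0.0139, with ranges of 5.11e-11 to 0.353 and 6.08e-11 to 0.784).

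Around Rpl22l1, Rpl7l1 and Rps27l, 18 of 30 neighbours were tested. Near Rpl7l1, Ptcra fell (-0.80, edgeR adjusted p = 0.0138; midpoint at -18.6 kb), and Ubr2 rose (0.25, edgeR adjusted p = 0.0365; 191 kb). Tpm1 (0.28, edgeR adjusted p = 0.00179), 88.2 kb from Rps27l, rose. None of the 3 tested neighbours of Rpl22l1 was called (0 at an unadjusted p below 0.05). Over all 4 regions, 3 of 26 tested neighbours were called higher and 2 lower, 19.2% in all against 26.5% of all genes. DESeq2 called 1 higher and 0 lower, and Ubr2 turned to -0.084 with the offset for effective length. The call of Ubr2 held in 3 of 14 alternatives, that of Ptcra in 9 and that of Tpm1 in 14.

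Of 12 genes named as pseudogenes of the parents (Rpl10-ps3 is annotated as protein-coding), 4 were tested and 0 were called by edgeR (1 at an unadjusted p below 0.05). With DESeq2 1 was lower; log2(TPM + 1) gave 1 in each direction. Rpl10-ps1 was listed at 0 in all 3 knockout libraries and at 300, 455 and 68.7 expected counts in wild type. Its difference was not called (edgeR adjusted p = 0.170; the alternatives gave 2.11e-15 to 0.405). Rpl10-ps3 had 1565, 1972 and 1190 counts in the knockout and 1585, 1703 and 1669 in wild type, with overlapping groups. Rpl3-ps1 had 15219 to 17682 counts in the knockout and 14594 to 16237 in wild type, above the 6116 to 7362 counts given to Rpl3 itself. Rpl22-ps1 had 38.2 to 43.2 counts and 46.8 to 51.8 counts. All 4 are copies among which reads can be split, so these single values are uncertain. Adding the pseudogenes to the parent left the log2 difference of the ratio at -2.78 for Rpl39l and moved it from -0.33 to -0.29 for Rpl10l and from -0.07 to -0.22 for Rpl3l.

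Effective length, which shifts when the mix of isoforms counted for a gene changes, was not itself a measure on which the genes were chosen. TPM was such a measure and is computed with effective length, so effective length is not independent of that choice. For Rpl39l it was 524 ± 57.8 bases in the knockout and 539 ± 11.5 bases in wild type (SD, n = 3; exact two-sided permutation test, p = 0.70). Over the 10 genes the smallest p was 0.10, the smallest that 3 against 3 libraries allow, for Rpl22 (6.71 bases longer in the knockout) and Rpl3l (145 bases longer), with an adjusted p of 0.50 for both in the exact permutation test. No difference could pass a threshold of 0.05 in this design.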

How the data were processed

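Each of the 6 deposited tables lists 1 library. Per the file headers, the authors deposited expected counts (estimated counts, not scaled for depth) and TPM and FPKM values scaled by length and library size. Bowtie (version 0.12.2) stands in the submitters' processing notes, with mm8 and mm10 as builds. For quantification tool, annotation and strand setting, the sources used here give no statement. All 55450 identifiers matched GENCODE M21 (GRCm38), the source of symbols and coordinates.

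Expected counts were rounded and tested in R 4.3.3 with edgeR 4.0.16 (TMM, filterByExpr, robust quasi-likelihood test, group as the only term). Adjusted p is Benjamini-Hochberg over all 12891 tested genes, called below 0.05. Ratios used TPM, and FPKM entered as an alternative. Alternatives were RLE, DESeq2 1.42.0, no filter, limma (3.58.1) on TPM with pseudocounts of 1 and 0.1, a replicate block, an effective-length offset, a loess length and GC correction, and each library left out. The edgeR step was tested on simulated counts. Labels name no batch. The genes and lists were chosen with earlier results of these data known. Genes named were the 10 genes, the 5 most like Rpl39l at a mean of at least 5 CPM, extremes or smallest p of each list, and called or adjacent neighbours; some genes the rule names are not reported here. Promoters are RefSeq sequences; 3 counts limit a library to 0.478 to 0.554 CPM, for counting error only.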

Additional observations from a re-analysis of the deposited data

How the results depend on the processing

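The direction of Rpl39l, its ratio to Rpl39 and the directions of Rpl10l and Rps27l held under every alternative run. The size of the Rpl39l fold change stayed within the spread between replicates in 11 of 14 alternatives. Leaving out 1 library could hardly move it by more, so those alternatives say little here. The fold change moved by more on both TPM fits (-2.59 and -2.67) and after the length and GC correction (-2.70). The ratios of the 6 pairs moved by less than the spread between replicates in all 10 alternatives each. Most of these alternatives could hardly move them by more. Leaving out 1 library shifts a group mean by less than that spread. FPKM gives nearly the same ratio as TPM, and the replicate block averages the same ratios. The Rpl3l ratio, -0.07, was 0.11 from expected counts, and the Rpl7l1 ratio, -0.01, ran from -0.085 to 0.096 without 1 library. Deviations of same-numbered libraries had r of 0.0181, 0.0526 and 0.0451, and those of other-numbered libraries -0.0929 to 0.0553. Values this small cannot tell whether the numbers pair the libraries, and the labels do not say. With the replicate block 1513 genes rose and 1840 fell, 6 of the 10 genes were lower, 1 neighbour and 1 pseudogene fell, and the Rpl39l ratio was -2.77. Over all genes, 1559 rose and 1861 fell; 701 rose with DESeq2, 989 rose and 713 fell with limma at a TPM pseudocount of 1, and 977 and 686 at one of 0.1. On log2(TPM + 0.1) all genes had a median of 0.11. Relative to that median the other ribosomal protein genes lay at -0.18, as with edgeR. The same relative median was -0.16 on log2(TPM + 1) and 0.017 after the length and GC correction.

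Of the 10 genes both TPM fits called 3 lower, and the length and GC correction called 3 higher. Of the other 76, both TPM fits called 7 higher and 18 lower, the length offset 1 higher, the length and GC correction 23 higher and 9 lower, and 33 to 57 were lower without 1 library. Of the neighbours, 1 was higher with DESeq2, no filter, log2(TPM + 0.1), the length offset and the length and GC correction; 0 were lower with DESeq2 and both TPM fits, and 1 without a filter. Without 1 library 1 to 2 were higher and 0 to 3 lower. Of the p53 targets DESeq2 called 1 higher and 1 lower, both TPM fits 0 lower, the length and GC correction 3 higher and 2 lower, and 1 to 6 were higher without 1 library. Of the pseudogenes 1 was higher on both TPM fits and after the length and GC correction, 1 was lower with DESeq2 and both TPM fits, and 0 to 1 were called in either direction without 1 library.

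Directions turned on both TPM fits for Rpl7l1 (0.032), Rpl39 (0.091), Rpl22 (0.072) and Rpl7 (0.049), after the length and GC correction for Rps27 (0.105), Rpl39 (0.153), Rpl22 (0.197), Rpl22l1 (0.0041), Rpl3l (0.077) and Usp7 (-0.064), and further for Carhsp1 (0.055 and 0.057) and Nubp1 (0.136 and 0.139) on TPM, Nubp1 (0.037) and Ubr2 (-0.084) with the length offset, and Rpl10-ps3 (0.058) after the length and GC correction. Without 1 library they turned for Nubp1 (-0.068 to 0.019), Rpl10-ps3 (-0.37 to 0.15), Rpl39 (-0.066 to 0.0060), Rpl22 (-0.076 to 0.020) and Rpl3l (-0.12 to 0.195). The causes were not tested. Depth limits Rpl3l, Emp2, Tekt5 and Tvp23a, each at a mean below 5 CPM in both groups.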
